A study of Rattus norvegicus with 4 samples.

Results

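The lysosomal genes of cultured rat mesenchymal stem cells were described in 34 genes that encode lysosomal enzymes, lysosomal membrane proteins and subunits of the lysosomal proton pump. The genes were taken by symbol from a list of 34, with the condition that a gene had at least 40 counts over the 4 libraries. All 34 met it, out of 12228 genes that did so and 34034 listed. The cells came from rat femurs and were labelled mesenchymal stem cells, the stromal precursors of bone, fat and cartilage cells. The cultures grew in medium that induces osteogenic differentiation and were harvested for RNA on day 1, following 24 h with compound or vehicle. The 4 conditions were senescent cells given trichostatin A (TSA, which blocks histone deacetylases) together with phenamil (a derivative of the diuretic amiloride), senescent cells given TSA, senescent cells given vehicle (senescent control) and young cells given vehicle (young control). Each condition was 1 library, no library held phenamil alone, and there was no young culture with a compound. The sample labels and the series title name phenamil, while the series' design text names benzyl ether instead, and the labels were followed. The sources used here give no strain, age, passage or dose, and not how the cells became senescent.

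Lysosomes are acidic organelles that break down proteins, glycans and lipids delivered by endocytosis and autophagy. A proton pump, the V-ATPase, acidifies them: its membrane part (V0) carries protons and its cytosolic part (V1) splits ATP. The transcription factor TFEB drives many lysosomal genes in human cells through a promoter element built on the letters CACGTG. Glb1 encodes the beta-galactosidase whose activity at near-neutral pH is the common stain for senescent cells, which often hold more lysosomal material. Roles of single genes below are those known from human and mouse.

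Levels are given as CPM, counts scaled to a common library size with TMM factors (trimmed mean of M-values). The libraries were made from the 3' ends of transcripts, so a count does not grow with transcript length, and levels are compared here only within a gene. Total counts were 10720172 with TSA + phenamil, 9873894 with TSA, 11024227 in the senescent control and 10905230 in the young control. The members had 182 to 90831 counts each over the 4 libraries. A ratio is the level in the first-named library over that in the second, with its 95% exact counting interval in parentheses. With 1 library per condition there was no spread between replicates and no test over samples, and the intervals cover counting error only, so each ratio compares 2 libraries rather than 2 conditions. In a RefSeq annotation the spans of 18 members overlap another gene, Npc1, Ctsz and Neu1 among them, and the sources used here do not say whether the counting used strand, so their counts can include reads of a neighbour. A gene was called higher or lower when its ratio was at least 1.2-fold from 1 and its interval excluded 1.

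Markers of mesenchymal stem cells were present in each library. All 7 examined were detected, with a summed level of 2588 CPM with TSA + phenamil, 2310 CPM with TSA, 2575 CPM in the senescent control and 2650 CPM in the young control. Thy1, Cd44 and Eng were not called in any pair, and Thy1 had 803 CPM in the TSA + phenamil library, 782 CPM in the TSA library, 754 CPM in the senescent control and 760.0 CPM in the young control. The other 4 were each called in at least 1 pair that involves a compound. The growth factor receptor gene Pdgfrb had 46.9 CPM in the TSA + phenamil library, 25.7 CPM in the TSA library, 38.8 CPM in the senescent control and 46.5 CPM in the young control, with a ratio of 0.663 (0.566 to 0.776) for TSA over the senescent control and 1.83 (1.57 to 2.13) for TSA + phenamil over TSA. For TSA over the senescent control the integrin gene Itgb1 was called lower at 0.825 (0.806 to 0.844) and the ectonucleotidase gene Nt5e higher at 1.52 (1.19 to 1.94). For TSA + phenamil, Nt5e was lower than with TSA at 0.730 (0.574 to 0.927), and Pdgfra was lower than in the senescent control at 0.824 (0.711 to 0.955). Of 17 macrophage markers, 7 had 0 counts with TSA + phenamil, 8 with TSA and 14 in either control, where a count of 0 allows up to 0.2705 to 0.302 CPM. Their summed level was 10.4 CPM in the TSA + phenamil library, 10.8 CPM in the TSA library, 6.45 CPM in the senescent control and 5.68 CPM in the young control. Most of it was Cd14, a lipopolysaccharide co-receptor that stromal cells can also make, at 7.90 CPM in the TSA + phenamil library, 8.57 CPM in the TSA library, 5.81 CPM in the senescent control and 5.14 CPM in the young control. The macrophage genes Adgre1, Itgam, Aif1, Lyz2 and Cd163 were at 0 in all 4 libraries, and Cd68, a lysosomal glycoprotein typical of macrophages, had 9 counts in the TSA + phenamil library, 5 in the TSA library and 0 in both controls. Ptprc, Csf1r, Tyrobp, C1qc, Mrc1, Spi1 and Laptm5 also had counts only in libraries with a compound, at most 4 in any library. Fcer1g, C1qa and C1qb had a few counts in at least 1 control as well. The part of these marker differences in the lysosomal results was not tested. The osteoclast genes Calcr and Ocstamp were at 0 throughout. The 8 osteoclast markers summed to 16.3 CPM with TSA + phenamil, 19.9 CPM with TSA, 14.8 CPM in the senescent control and 17.2 CPM in the young control, and were mainly Acp5 and Mmp9, which other cells also express. The 5 endothelial markers stayed at or below 0.381 CPM in sum and the 5 adipocyte markers at or below 1.14 CPM. Of 5 osteoblast markers, Sp7 and Ibsp were at 0 in all libraries. Bglap had 2 counts in each control and 0 in both libraries with a compound, and Dmp1 had 1 count, in the TSA library. Alpl, the alkaline phosphatase gene, had 21.6 CPM in the TSA + phenamil library, 15.9 CPM in the TSA library, 19.2 CPM in the senescent control and 17.5 CPM in the young control. It was called higher with TSA + phenamil over TSA at 1.36 (1.103 to 1.67) and over the young control at 1.24 (1.02 to 1.505). In RNA from whole cultures, fewer cells of a type and less RNA per cell cannot be told apart.

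The promoter letters are shown because they are what TFEB-type factors are known to read. RefSeq windows from 250 bases before to 50 bases after a transcription start (build GRCr8, which differs from the build of the counts, mRatBN7.2) were found for 27 of the 34 members. The windows of Ctsb, Hexa, Psap, Asah1, Ppt1, Atp6v1b2 and Atp6v1h were not used here. CACGTG reads the same on both strands. It was present in 7 of the 27 windows (25.9%), namely those of Glb1, Gaa, Ctsd, Lamp1, Cd63, Mcoln1 and Atp6v0d1. Of all 33469 windows 6.42% held it, and of the 11315 windows of genes with enough counts 9.22%. The longer TCACGTG, searched on both strands and always overlapping a CACGTG, was in 6 member windows (22.2%), 3.20% of all windows and 5.49% of those of genes with enough counts. Median GC content was 60.7% in member windows, 51.7% in all windows and 60.3% in those of genes with enough counts. The 4 stretches below are the 200 bases before the start of genes discussed later, with CACGTG in capitals: Glb1 at chr8:122963518-122963717 (plus strand), Gaa at chr10:105028155-105028354 (plus strand), Lamp1 at chr16:83075064-83075263 (minus strand) and Ctsd at chr1:206968822-206969021 (minus strand).
Glb1: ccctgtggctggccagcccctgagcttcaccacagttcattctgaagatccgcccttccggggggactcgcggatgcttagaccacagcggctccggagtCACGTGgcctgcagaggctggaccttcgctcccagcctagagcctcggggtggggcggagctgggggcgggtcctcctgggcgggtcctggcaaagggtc
Gaa: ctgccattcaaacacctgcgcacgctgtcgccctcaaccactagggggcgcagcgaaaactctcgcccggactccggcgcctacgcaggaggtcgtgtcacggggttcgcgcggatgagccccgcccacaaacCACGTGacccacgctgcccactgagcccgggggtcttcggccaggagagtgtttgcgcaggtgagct
Lamp1: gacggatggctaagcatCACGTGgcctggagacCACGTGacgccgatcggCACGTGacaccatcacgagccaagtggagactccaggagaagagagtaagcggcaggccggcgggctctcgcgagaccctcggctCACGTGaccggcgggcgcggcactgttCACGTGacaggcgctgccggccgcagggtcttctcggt
Ctsd: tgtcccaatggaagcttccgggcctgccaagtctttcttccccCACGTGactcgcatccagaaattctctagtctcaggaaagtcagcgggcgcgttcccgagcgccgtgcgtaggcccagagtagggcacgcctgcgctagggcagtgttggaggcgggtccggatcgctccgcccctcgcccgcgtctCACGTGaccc

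Counted from the start, CACGTG began at position -100 in Glb1 and -67 in Gaa, at -157 and -10 in Ctsd, and at -183, -167, -150, -65 and -38 in Lamp1. Matches describe the letters only, and their part in any level was not tested. The members with the letters did not share one pattern across the libraries. In the senescent control against the young control, 2 of the 7 were called higher and none lower, with a median log2 ratio of 0.09, and of the 20 without them 2 were called higher and 3 lower, with a median of 0.01. Of all genes 11.5% were called higher and 11.6% lower in that pair. In TSA + phenamil over the senescent control, 1 of the 7 was called lower and none higher, against 3 higher and 5 lower of the 20, with medians of -0.03 and -0.005, beside 10.3% of all genes higher and 9.93% lower. With TSA over the senescent control, none of the 7 was called. Of the 20, 1 was called higher and none lower, and the medians were -0.12 and -0.02. Of all genes 9.78% were called higher and 9.79% lower there. For TSA + phenamil over TSA, 1 of the 7 was called higher and 1 lower, against 3 and 4 of the 20. Medians were 0.01 and 0.009, beside 11.9% of all genes called higher and 11.3% lower. Counts this small are read no further.

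Lysosomal genes as a whole were nearly level. The 34 together took 0.727% of unscaled counts with TSA + phenamil and 0.769% with TSA. In the senescent control they took 0.755% and in the young control 0.743%. On the TMM scale they summed to 7421 CPM with TSA + phenamil and 7651 CPM with TSA. The senescent control had 7559 CPM and the young control 7306 CPM. Which library was lowest thus depended on the scaling. Psap and Cd63 made up much of these sums. Without them the summed level was 4021 CPM with TSA + phenamil, 4064 CPM with TSA, 4116 CPM in the senescent control and 3927 CPM in the young control. The 6 pump genes summed to 608 CPM with TSA + phenamil, 687 CPM with TSA, 693 CPM in the senescent control and 592 CPM in the young control. Within a gene, the highest library stood 1.04 to 2.14 times above the lowest, with a median of 1.21, and in 14 of the 34 genes this span was under 1.2-fold. In 5 genes it was at least 1.5-fold: Tfeb at 2.14, Npc1 and Mcoln1 both at 1.65, Neu1 at 1.59 and Naglu at 1.57. The senescent control was the highest library for 13 genes and the lowest for 4. The young control was the highest for 7 and the lowest for 13, the TSA library the highest for 5 and the lowest for 10, and the TSA + phenamil library the highest for 9 and the lowest for 7. Spans and highest or lowest libraries were not computed for all genes, so these counts of members are read no further.

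**Figure D1:**
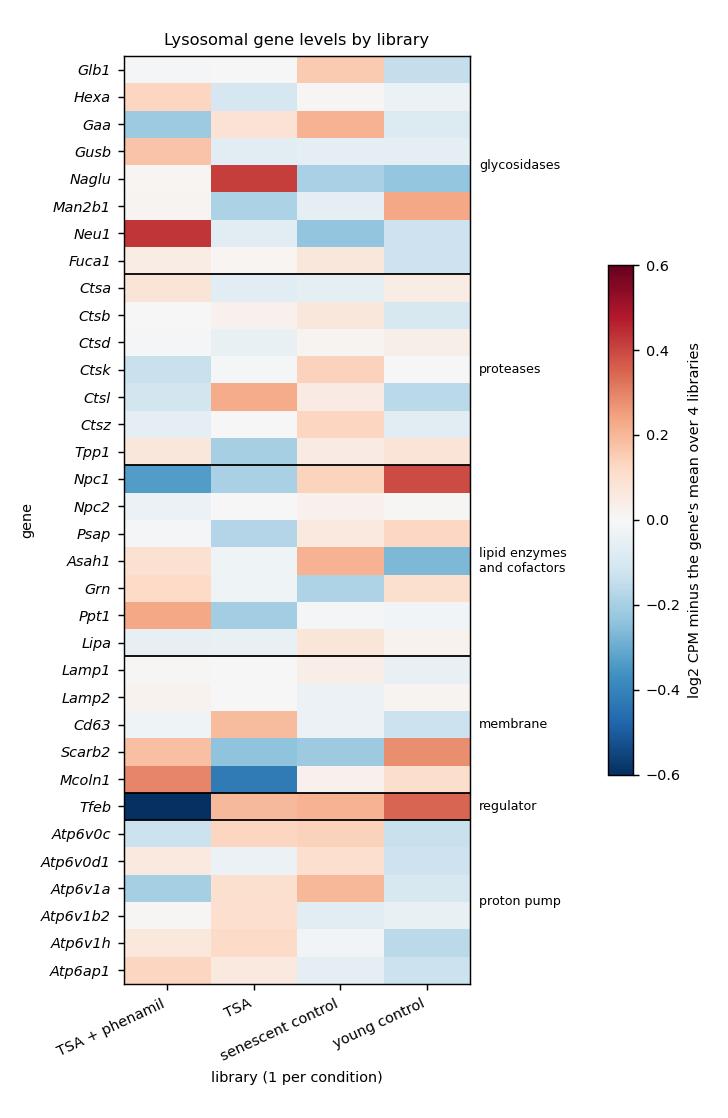
Level of each of the 34 lysosomal genes in the 4 libraries, as log2 CPM minus the gene's own mean over the libraries, grouped by role; red is above the mean, blue below, and the darkest shades also stand for deviations past the end of the scale. Columns from left to right are TSA + phenamil, TSA, senescent control and young control, 1 library each, and the deepest colours belong to Tfeb, Naglu, Neu1, Mcoln1 and Npc1.

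No gene of the 34 was called in all 4 main comparisons, and 17 were called in at least 1 of them. Of all genes, 9.78% to 11.9% were called per direction in each of these comparisons. The share of all genes called at least once was not computed, so the count of 17 is read no further. Lamp1 and Lamp2, the heavily glycosylated coat proteins of the lysosomal membrane, were among the steadiest. Lamp1 had 733 CPM in the TSA + phenamil library, 727 CPM in the TSA library, 748 CPM in the senescent control and 706 CPM in the young control. Lamp2 had 276 CPM in the TSA + phenamil library, 272 CPM in the TSA library, 266 CPM in the senescent control and 276 CPM in the young control, the narrowest span of all. The soluble cholesterol carrier gene Npc2 stood at 344 CPM in the TSA + phenamil library, 353 CPM in the TSA library, 359 CPM in the senescent control and 355 CPM in the young control. The aspartic protease gene Ctsd had 186 CPM in the TSA + phenamil library, 181 CPM in the TSA library, 189 CPM in the senescent control and 192 CPM in the young control. Each of these 4 genes stayed within 1.2-fold between any pair of libraries.

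The other 13 of the 17 genes with no call in the main comparisons include glycosidases, proteases, lipid enzymes and cofactors, a membrane protein and pump subunits. Ctsb, a cysteine protease and the most counted of the cathepsins, had 365 CPM in the TSA + phenamil library, 370.5 CPM in the TSA library, 382 CPM in the senescent control and 340.4 CPM in the young control. Ctsa, the protective protein of the sialidase complex, had 116 CPM in the TSA + phenamil library, 105 CPM in the TSA library, 106 CPM in the senescent control and 113 CPM in the young control. Fuca1, which removes fucose from glycans, had 101 CPM in the TSA + phenamil library, 98.999 CPM in the TSA library, 103 CPM in the senescent control and 90.0 CPM in the young control, with the young control lowest. Hexa, a subunit of the hexosaminidase that degrades gangliosides, had 81.0 CPM in the TSA + phenamil library, 69.2 CPM in the TSA library, 74.4 CPM in the senescent control and 72.3 CPM in the young control. Lipa, the acid lipase that frees cholesterol from its esters, had 94.0 CPM in the TSA + phenamil library, 94.3 CPM in the TSA library, 102 CPM in the senescent control and 98.5 CPM in the young control. Gusb, the beta-glucuronidase, ran from 13.4 to 15.8 CPM over the libraries and the carboxypeptidase gene Ctsz from 19.1 to 21.9 CPM. In these 7 genes no pair of libraries differed by 1.2-fold or more. The remaining 6, Psap, Cd63, Atp6v0d1, Atp6v1b2, Atp6v1h and Atp6ap1, are described with the comparisons.

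In the libraries of senescent and young cells given vehicle, 8 lysosomal genes differed past the call rule. Glb1, the senescence-associated beta-galactosidase, was higher in the senescent control, as were Gaa, Asah1 and the proton pump genes Atp6v0c and Atp6v1a, by 1.21 to 1.39 times. Man2b1, Grn and Scarb2 were lower, at 0.708 to 0.823 times the young level. In all 5 of 34 members were called higher (14.7%), beside 11.5% of all 12228 genes, and 3 lower (8.82%), beside 11.6% of all genes. These shares are near those of all genes, and among the 9836 genes with at least as many counts as the least counted member they were also 11.5% and 11.6%. The median log2 ratio of the members was 0.04, against 0.005 for all genes.

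Glb1 stood at 76.6 CPM in the TSA + phenamil library, 77.0 CPM in the TSA library, 85.9 CPM in the senescent control and 70.0 CPM in the young control. The senescent control was above the 3 others: its ratio to the young control was 1.23 (1.12 to 1.35), while the TSA + phenamil and TSA libraries lay between the 2 controls and differed from each other by less than counting error. Gaa encodes the acid alpha-glucosidase that degrades glycogen. It had 59.9 CPM in the TSA + phenamil library, 74.1 CPM in the TSA library, 80.5 CPM in the senescent control and 65.9 CPM in the young control, with a ratio of 1.22 (1.11 to 1.35) for the senescent over the young control. Man2b1, the lysosomal alpha-mannosidase, had 62.1 CPM in the TSA + phenamil library, 53.8 CPM in the TSA library, 59.0 CPM in the senescent control and 72.2 CPM in the young control, and its ratio was 0.817 (0.736 to 0.907). It was highest in the young control. The other glycosidase genes Hexa, Gusb, Naglu, Neu1 and Fuca1 had ratios of 0.925 to 1.15 and were not called.

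Among lipid-degrading enzymes and their cofactors, Asah1 showed the largest upward ratio. It encodes acid ceramidase, which converts ceramide to sphingosine. Its levels were 73.1 CPM in the TSA + phenamil library, 67.4 CPM in the TSA library, 79.3 CPM in the senescent control and 56.9 CPM in the young control, with a ratio of 1.39 (1.26 to 1.55) for the senescent over the young control, and the young control was below the 3 senescent libraries. Grn, which encodes progranulin, a secreted and lysosomal growth factor precursor, had 369 CPM in the TSA + phenamil library, 334 CPM in the TSA library, 299 CPM in the senescent control and 363 CPM in the young control, with a ratio of 0.823 (0.786 to 0.862). Here the senescent control was the lowest library. Ppt1, Lipa, Npc1, Npc2 and Psap were not called. The cysteine protease genes Ctsb at 1.12 (1.07 to 1.17) and Ctsl at 1.16 (1.09 to 1.22) had intervals above 1 but were less than 1.2-fold apart, and none of the 7 protease genes was called in this pair.

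Scarb2 encodes LIMP-2, the membrane protein that carries glucocerebrosidase to lysosomes. It had 22.4 CPM in the TSA + phenamil library, 16.7 CPM in the TSA library, 16.98 CPM in the senescent control and 24.0 CPM in the young control. The TSA library and the senescent control were the low pair and the TSA + phenamil library and the young control the high pair. The senescent over young ratio was 0.708 (0.584 to 0.857), the lowest among the members. Of the 6 proton pump genes 2 were called higher and none lower, beside 11.5% and 11.6% of all genes, with a median log2 ratio of 0.18 against 0.005 for all genes. Atp6v0c, the proteolipid of the rotating V0 ring, had 239.6 CPM in the TSA + phenamil library, 286 CPM in the TSA library, 288 CPM in the senescent control and 239 CPM in the young control and a ratio of 1.21 (1.15 to 1.27). Atp6v1a, the catalytic subunit of V1, had 139 CPM in the TSA + phenamil library, 171 CPM in the TSA library, 183 CPM in the senescent control and 149 CPM in the young control and a ratio of 1.23 (1.15 to 1.31). The V0 stalk gene Atp6v0d1 at 1.17 (1.06 to 1.29), Atp6v1h at 1.11 (0.987 to 1.24), Atp6ap1 at 1.05 (0.905 to 1.22) and Atp6v1b2 at 0.989 (0.881 to 1.11) were not called. The regulator Tfeb was at 0.908 (0.619 to 1.33), an interval that included 1.

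**Figure D2:**
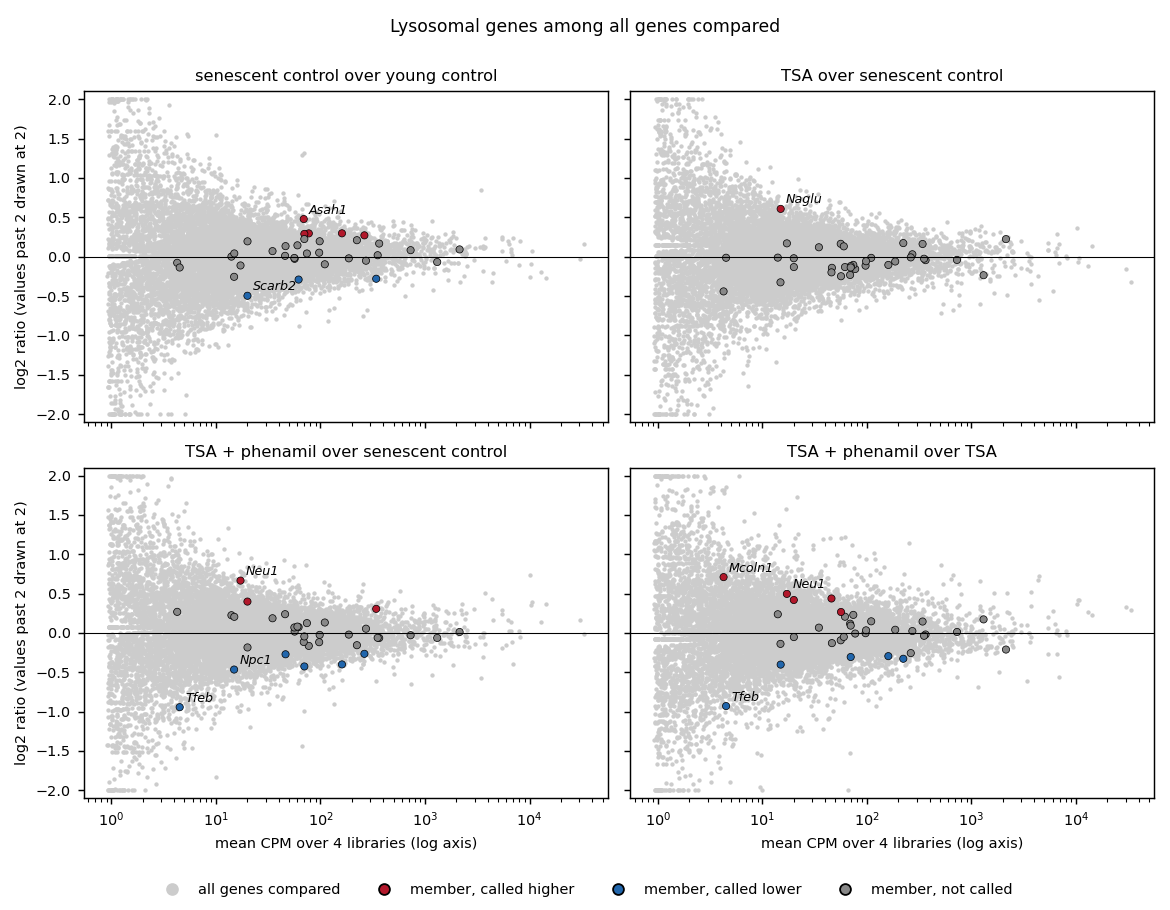
Log2 ratio against mean CPM for the 34 lysosomal genes (outlined points, red called higher, blue called lower, dark grey not called) over all 12228 genes compared (light grey), in the 4 main comparisons. The lysosomal genes lie within the cloud of all genes, and the members farthest from 0 are Asah1, Scarb2, Naglu, Neu1, Npc1, Mcoln1 and Tfeb.

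TSA was next compared with vehicle in senescent cells, and lysosomal genes differed little. Naglu, which encodes an enzyme of heparan sulfate breakdown, was higher in the TSA library and was the 1 member called higher (2.94%), beside 9.78% of all genes, and none was called lower, beside 9.79% of all genes. A further 9 members had intervals that excluded 1 with ratios under 1.2-fold. The median log2 ratio of the members was -0.05, against -0.003 for all genes, and 25 of the 34 ratios were under 1.

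Naglu had 14.9 CPM in the TSA + phenamil library, 19.7 CPM in the TSA library, 12.9 CPM in the senescent control and 12.5 CPM in the young control. The TSA library stood above both controls, with a ratio of 1.52 (1.22 to 1.91) to the senescent control. Cd63, a tetraspanin of late endosomes and exosomes, was highest in the TSA library as well, at 2101 CPM in the TSA + phenamil library, 2433 CPM in the TSA library, 2084 CPM in the senescent control and 1955 CPM in the young control, with a ratio of 1.17 (1.15 to 1.19). Psap, the precursor of the saposins that help lipid-cleaving enzymes, was lowest there, at 1299 CPM in the TSA + phenamil library, 1154 CPM in the TSA library, 1358 CPM in the senescent control and 1424 CPM in the young control, with a ratio of 0.849 (0.829 to 0.870). Tpp1, a peptidase that removes tripeptides from proteins, had 59.1 CPM in the TSA + phenamil library, 49.2 CPM in the TSA library, 58.5 CPM in the senescent control and 59.6 CPM in the young control and a ratio of 0.841 (0.746 to 0.948), and Asah1 had a ratio of 0.851 (0.768 to 0.942). Cd63, Psap, Tpp1 and Asah1 were among the 9 with intervals excluding 1, as was Glb1 at 0.897 (0.814 to 0.988). All 6 proton pump members were within 1.2-fold, from 0.909 for Atp6v0d1 to 1.12 for Atp6v1b2. Mcoln1, which encodes a calcium-permeable channel of the lysosomal membrane, was at 0.732 (0.450 to 1.18), with few counts.

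**Figure D3:**
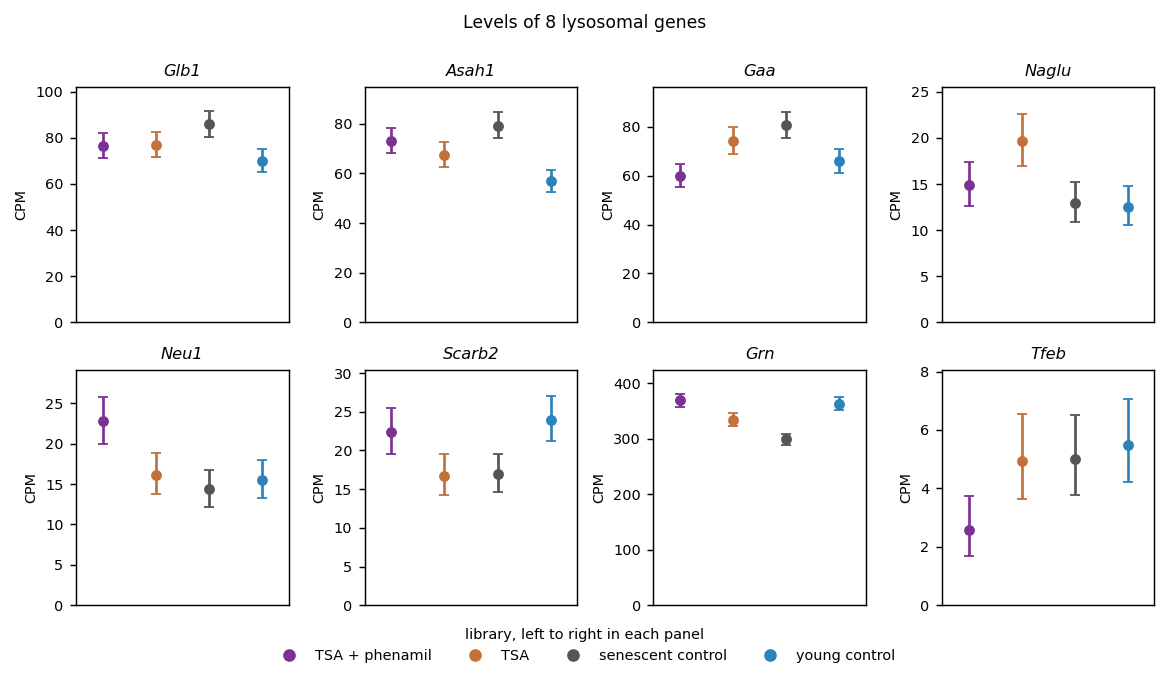
CPM of 8 lysosomal genes in each library, from left to right TSA + phenamil, TSA, senescent control and young control, with bars for the 95% Poisson counting interval and axes starting at 0. Glb1, Asah1 and Gaa are highest in the senescent control, Naglu in the TSA library and Neu1 in the TSA + phenamil library, while Tfeb is lowest with TSA + phenamil.

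Senescent cells given both compounds were then set against the senescent control. Neu1, Scarb2 and Grn were higher with both compounds, by 1.24 to 1.59 times. Tfeb, Npc1, Gaa, Atp6v1a, Ctsk and Atp6v0c were lower, at 0.515 to 0.831 times the senescent control level. Thus 3 of 34 were called higher (8.82%), beside 10.3% of all genes, and 6 lower (17.6%), beside 9.93% of all genes. The median log2 ratio was -0.02, against -0.001 for all genes. The senescent control enters this comparison and that with young cells, so a high or low value in that library moves both.

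Neu1 encodes the lysosomal sialidase, which works in a complex with the protease Ctsa and the Glb1 enzyme. It had 22.8 CPM in the TSA + phenamil library, 16.1 CPM in the TSA library, 14.3 CPM in the senescent control and 15.5 CPM in the young control. The TSA + phenamil library stood apart above the 3 others, with a ratio of 1.59 (1.29 to 1.95). Of its partners, Ctsa was at 1.096 (1.01 to 1.19) and Glb1 at 0.891 (0.810 to 0.980), and neither was called. Gaa was at 0.744 (0.670 to 0.825) and lowest with both compounds. The other glycosidases Hexa, Gusb, Naglu, Man2b1 and Fuca1 ran from 0.982 to 1.17 and were not called.

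Tfeb had the largest downward ratio and the fewest counts of those called: 27 counts with TSA + phenamil, 49 with TSA, 55 in the senescent control and 61 in the young control. These are 2.57 CPM in the TSA + phenamil library, 4.94 CPM in the TSA library, 4.99 CPM in the senescent control and 5.50 CPM in the young control. The ratio was 0.515 (0.312 to 0.830), and the 3 libraries without phenamil overlapped within their intervals. Npc1, the membrane protein that moves cholesterol out of lysosomes, had 11.6 CPM in the TSA + phenamil library, 12.8 CPM in the TSA library, 16.1 CPM in the senescent control and 19.2 CPM in the young control and a ratio of 0.723 (0.569 to 0.916). Its soluble partner Npc2 was at 0.957 (0.915 to 1.002) and was not called. Ctsk, a collagen-cleaving cysteine protease best known from osteoclasts, had 42.1 CPM in the TSA + phenamil library, 46.1 CPM in the TSA library, 50.8 CPM in the senescent control and 46.3 CPM in the young control and a ratio of 0.828 (0.729 to 0.940), and the 6 other protease genes were not called. Scarb2 was at 1.32 (1.08 to 1.61) and Grn at 1.24 (1.18 to 1.29). Of the pump, Atp6v1a was at 0.757 (0.707 to 0.810) and Atp6v0c at 0.831 (0.789 to 0.876), just past 1.2-fold, while Atp6v0d1, Atp6v1b2, Atp6v1h and Atp6ap1 ran from 0.969 to 1.14.

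**Figure D4:**
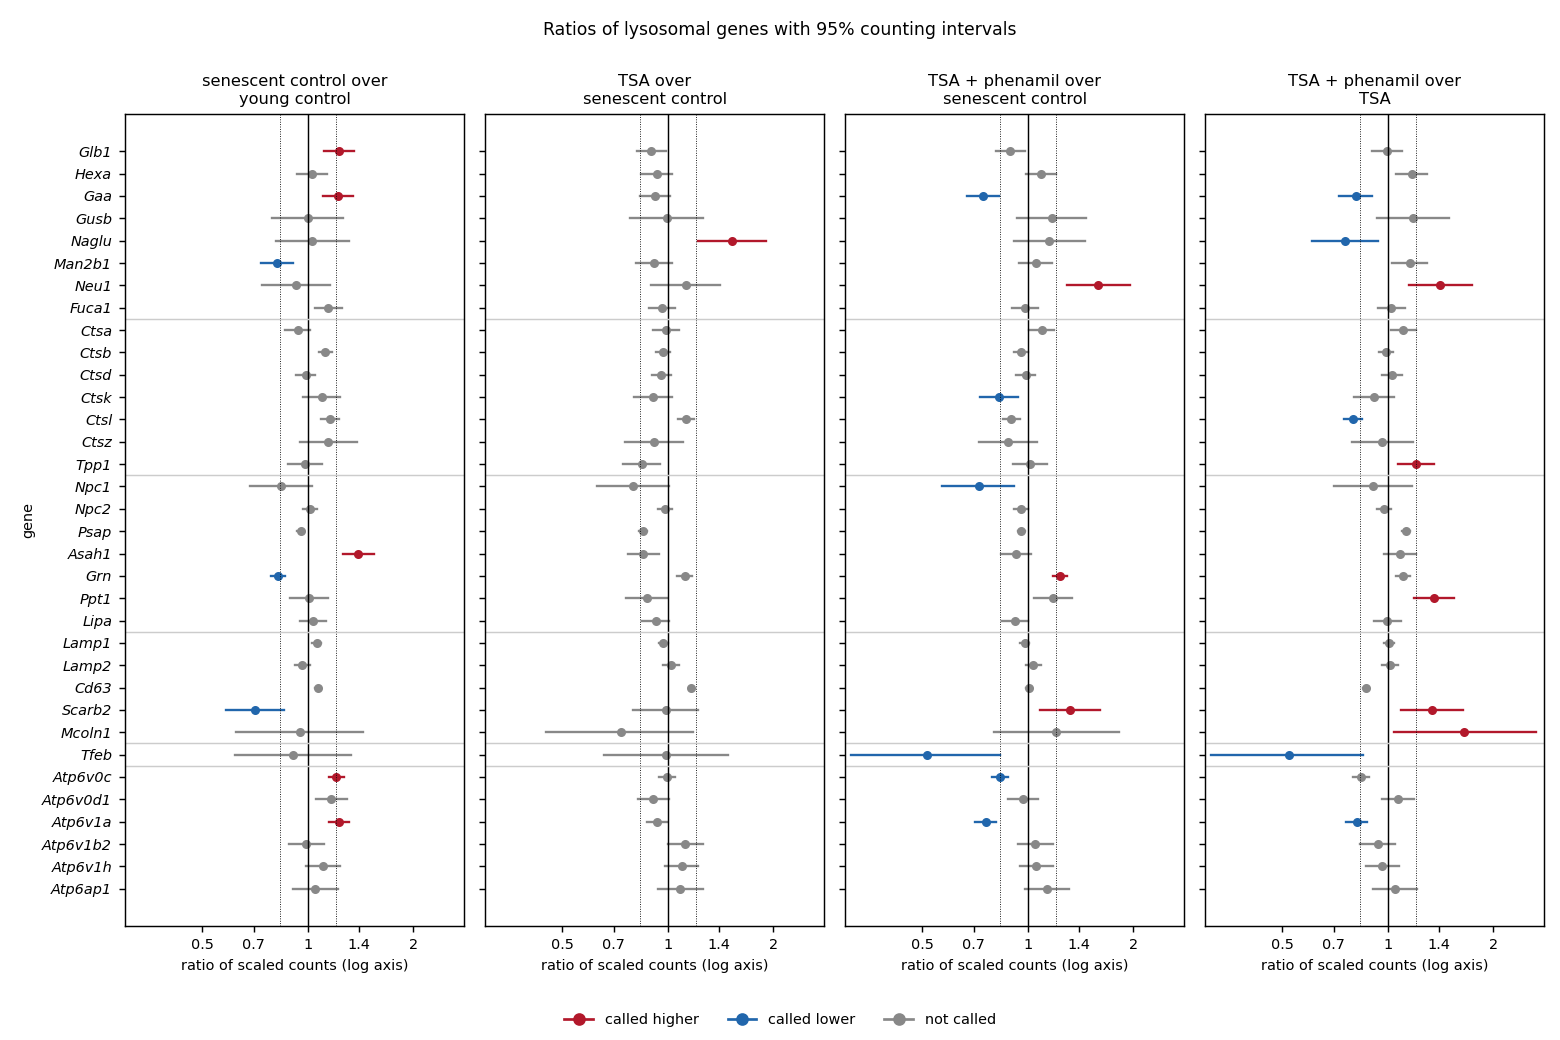
Ratio of scaled counts of the 34 lysosomal genes in the 4 main comparisons, on a log axis, with 95% exact counting intervals; dotted lines mark 1.2-fold in either direction, red is called higher, blue called lower and grey not called. Genes called number 8 in the senescent over young control panel and 1 (Naglu) in the TSA over senescent control panel. They number 9 with TSA + phenamil over the senescent control and 10 with TSA + phenamil over TSA. Of all genes, 9.78% to 11.9% were called per direction in these 4 comparisons.

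By the labels, the libraries with TSA + phenamil and with TSA differ in phenamil, which made this the last of the 4 main comparisons. Mcoln1, Neu1, Ppt1, Scarb2 and Tpp1 were higher with phenamil added, by 1.202 to 1.65 times, and Tfeb, Naglu, Ctsl, Gaa and Atp6v1a were lower, at 0.521 to 0.815 times. These were 5 of 34 in each direction (14.7%), beside 11.9% of all genes higher and 11.3% lower. The median log2 ratio was 0.02, against 0.001 for all genes, and -0.02 for the members when libraries were scaled by total counts. The pair shares a library with each of the comparisons of a compound with vehicle.

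Mcoln1 had 54 counts in the TSA + phenamil library against 31 with TSA alone, 47 in the senescent control and 50 in the young control. Its levels were 5.14 CPM in the TSA + phenamil library, 3.13 CPM in the TSA library, 4.27 CPM in the senescent control and 4.51 CPM in the young control, and the ratio of 1.65 (1.04 to 2.65) had an interval reaching near 1. Ppt1, which removes fatty acids from modified proteins, had 53.5 CPM in the TSA + phenamil library, 39.5 CPM in the TSA library, 45.4 CPM in the senescent control and 45.1 CPM in the young control and a ratio of 1.35 (1.19 to 1.54). The TSA library was its lowest and the TSA + phenamil library its highest. Neu1 was at 1.41 (1.15 to 1.73), Scarb2 at 1.34 (1.09 to 1.64) and Tpp1 at 1.202 (1.07 to 1.36), the last just past 1.2-fold.

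Ctsl, a broad cysteine protease, had 206 CPM in the TSA + phenamil library, 259 CPM in the TSA library, 229.6 CPM in the senescent control and 199 CPM in the young control. It was highest in the TSA library, and the ratio was 0.796 (0.751 to 0.843). Naglu was at 0.756 (0.608 to 0.938), Gaa at 0.808 (0.726 to 0.900), Tfeb at 0.521 (0.313 to 0.849) and Atp6v1a at 0.815 (0.759 to 0.874). Atp6v0c, at 0.837 (0.793 to 0.883), lay just short of 1.2-fold and was not called. Glb1 was at 0.994 (0.899 to 1.099), so the libraries with and without phenamil differed by less than counting error for this gene.

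Against the young control, the TSA library had 4 of 34 members called higher (11.8%), beside 15.5% of all genes, and 5 lower (14.7%), beside 16.2%. The higher ones were Naglu at 1.57 (1.26 to 1.964), Ctsl at 1.303 (1.23 to 1.38), Cd63 at 1.24 (1.22 to 1.27) and Atp6v1h at 1.21 (1.08 to 1.36). The lower ones were Npc1 at 0.667 (0.531 to 0.834), Scarb2 at 0.698 (0.571 to 0.850), Man2b1 at 0.746 (0.667 to 0.833), Psap at 0.810 (0.791 to 0.830) and Tpp1 at 0.826 (0.733 to 0.929). The TSA + phenamil library had 2 called higher (5.88%) and 2 lower (5.88%) against the young control, beside 10.2% of all genes in each direction. Neu1 at 1.47 (1.202 to 1.80) and Asah1 at 1.29 (1.16 to 1.43) were higher, and Npc1 at 0.605 (0.480 to 0.759) and Tfeb at 0.468 (0.286 to 0.747) were lower. Glb1 was not called against the young control in either library, at 1.09 (0.990 to 1.21) with TSA + phenamil and 1.101 (0.995 to 1.22) with TSA.

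Of 13 further subunit and accessory genes of the proton pump, 10 had enough counts. In the senescent over the young control, 2 were called higher and none lower, beside 11.5% and 11.6% of all genes: Atp6v0b at 1.28 (1.16 to 1.42) and Atp6v1d at 1.21 (1.12 to 1.32). With TSA against the senescent control, Atp6v1d at 1.32 (1.22 to 1.42) and Atp6v1c1 at 1.22 (1.06 to 1.41) were called higher and none lower, beside 9.78% and 9.79% of all genes. For TSA + phenamil against the senescent control, Atp6v0b at 0.706 (0.633 to 0.787) and Tcirg1, a V0 subunit of osteoclasts and other cells, at 0.717 (0.546 to 0.937) were called lower and none higher, beside 9.93% and 10.3% of all genes. In the TSA + phenamil library against TSA, none was called higher and 4 were called lower, beside 11.9% and 11.3% of all genes, led by Atp6v1d at 0.762 (0.706 to 0.822), Atp6v0b at 0.747 (0.668 to 0.836) and Atp6v0e1 at 0.822 (0.760 to 0.888). All 10 ratios of that pair were under 1, with a median log2 ratio of -0.18, against 0.001 for all genes. The share of all genes with a ratio under 1 was not computed. Of the 6 pump members, 2 had ratios over 1 and 4 under 1 in that pair, with a median log2 ratio of -0.07. Atp6v0b had 53.0 CPM in the TSA + phenamil library, 71.0 CPM in the TSA library, 75.2 CPM in the senescent control and 58.6 CPM in the young control. The members and these 10 genes together comprise 16 pump genes, and the V1 subunit genes Atp6v1g1, Atp6v1f and Atp6v1e1 were among those with no call in the 4 main comparisons. Atp6ap2 had 2 to 5 counts per library and was not compared.

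**Figure D5:**
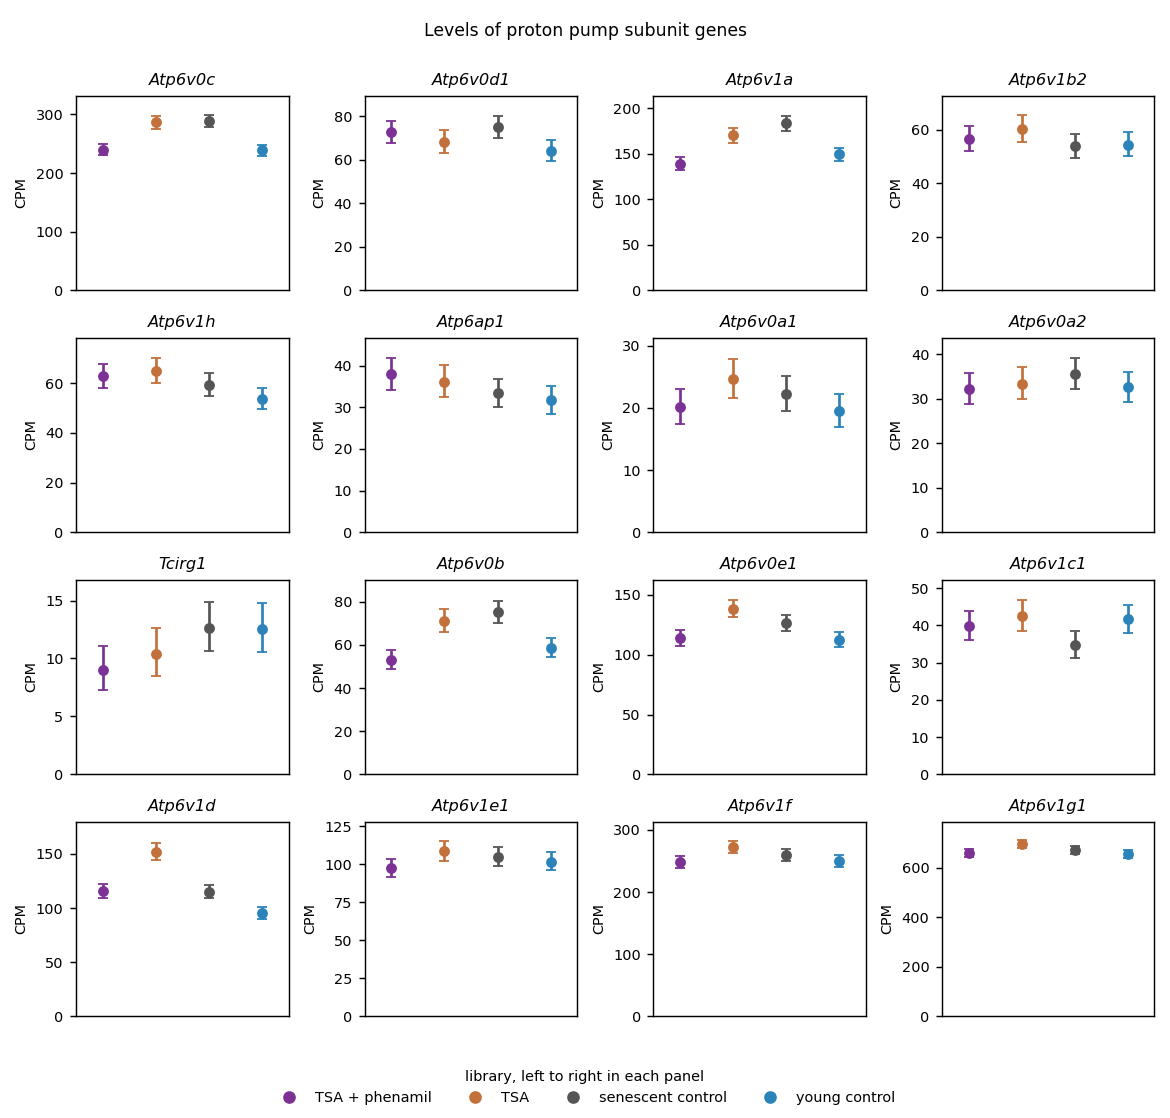
CPM of 16 proton pump genes in each library, from left to right TSA + phenamil, TSA, senescent control and young control, with 95% Poisson counting intervals and axes from 0. Atp6v0c, Atp6v1a and Atp6v0b are lower in the TSA + phenamil library than in the TSA library and the senescent control, while Atp6v1d is highest in the TSA library.

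Of 31 further lysosomal enzyme and cofactor genes, 30 had enough counts. Their median log2 ratio was -0.008 in the senescent over the young control, -0.05 with TSA over the senescent control, 0.06 with TSA + phenamil over the senescent control and 0.06 with TSA + phenamil over TSA. In the senescent over the young control, none was called higher and 3 lower, beside 11.5% and 11.6% of all genes, led by Sgsh, a sulfatase of heparan sulfate breakdown, at 0.625 (0.484 to 0.804). Sgsh had 15.4 CPM in the TSA + phenamil library, 15.5 CPM in the TSA library, 9.35 CPM in the senescent control and 15.0 CPM in the young control, so the senescent control was the low library. With TSA against the senescent control, 2 were called higher and 2 lower, beside 9.78% and 9.79% of all genes: Sgsh was at 1.66 (1.29 to 2.15) and the acid nuclease gene Dnase2 at 1.58 (1.245 to 1.9995), and the sulfatase gene Arsb at 0.769 (0.659 to 0.895) and the protease gene Ctsf at 0.815 (0.694 to 0.957). With both compounds against the senescent control, 3 were called higher and 1 lower, beside 10.3% and 9.93% of all genes: Sgsh at 1.65 (1.28 to 2.13), Dnase2 at 1.46 (1.16 to 1.86) and Galc, the galactosylceramidase, at 1.66 (1.04 to 2.69) were the higher ones and Arsb at 0.616 (0.524 to 0.723) the lower. In TSA + phenamil over TSA, 2 were called higher and 2 lower, beside 11.9% and 11.3% of all genes.

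For 18 further lysosomal membrane genes the median log2 ratio was 0.13 in the senescent over the young control and -0.09 with TSA + phenamil over TSA. Of them, 3 were called higher in the senescent over the young control (16.7%) and none lower, beside 11.5% and 11.6% of all genes. These were Laptm4b at 1.48 (1.27 to 1.74), the sialomucin gene Cd164 at 1.22 (1.14 to 1.297) and Tmem106b at 1.22 (1.07 to 1.38). For TSA + phenamil against the senescent control, none was called higher and 4 lower, beside 10.3% and 9.93% of all genes, among them Cd164 at 0.790 (0.739 to 0.844), Laptm4b at 0.670 (0.571 to 0.785) and the potassium and proton channel gene Tmem175 at 0.705 (0.560 to 0.884). Laptm4b had 24.6 CPM in the TSA + phenamil library, 33.5 CPM in the TSA library, 36.7 CPM in the senescent control and 24.7 CPM in the young control. With TSA against the senescent control, none was called higher and 2 lower, beside 9.78% and 9.79% of all genes, the chloride transporter gene Clcn7 at 0.762 (0.639 to 0.908) and Cln3 at 0.370 (0.153 to 0.811), the last with 9 counts in the TSA library and 27 in the senescent control. In the TSA + phenamil library against TSA, 2 were called higher and 4 lower, beside 11.9% and 11.3% of all genes.

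Relatives of Tfeb and genes of the mTORC1 kinase complex, which senses nutrients at the lysosome and holds TFEB in the cytosol, had a median log2 ratio of 0.008 in the senescent over the young control and -0.12 with TSA + phenamil over TSA. Of 15 with enough counts, 3 were called higher and 1 lower in the senescent over the young control, beside 11.5% and 11.6% of all genes. Mitf, which encodes a relative of TFEB, had 11.05 CPM in the TSA + phenamil library, 9.48 CPM in the TSA library, 13.3 CPM in the senescent control and 7.84 CPM in the young control and a ratio of 1.69 (1.29 to 2.23). Rraga, a GTPase that recruits mTORC1, was at 1.54 (1.43 to 1.66) and Tfe3, also of the TFEB family, at 1.28 (1.09 to 1.499). With TSA against the senescent control, 2 were called higher and 2 lower, beside 9.78% and 9.79% of all genes. These include the Ragulator gene Lamtor5 at 1.29 (1.11 to 1.51) and Mitf at 0.715 (0.546 to 0.933). With both compounds against the senescent control, 1 was called higher and 1 lower, beside 10.3% and 9.93% of all genes. In TSA + phenamil over TSA, 2 were called higher and 5 lower, beside 11.9% and 11.3% of all genes, led by the Ragulator genes Lamtor4 at 0.765 (0.707 to 0.827) and Lamtor5 at 0.786 (0.674 to 0.915) and by Fnip1 at 0.648 (0.485 to 0.860).

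Autophagy genes, whose products deliver cargo to lysosomes, had a median log2 ratio of -0.00036 in the senescent over the young control and 0.04 with TSA + phenamil over TSA. Of 20, 1 was called higher and 2 lower in the senescent over the young control, beside 11.5% and 11.6% of all genes, with the conjugation enzyme gene Atg3 at 1.2526 (1.096 to 1.43) and the vesicle protein gene Atg9a at 0.650 (0.527 to 0.800). With TSA against the senescent control, 1 was called higher and 3 lower, beside 9.78% and 9.79% of all genes. Among the lower ones was the initiating kinase gene Ulk1 at 0.722 (0.612 to 0.851). For TSA + phenamil against the senescent control, 2 were called higher and 1 lower, beside 10.3% and 9.93% of all genes. Among the higher ones was the cargo receptor gene Nbr1 at 1.249 (1.11 to 1.41). In the TSA + phenamil library against TSA, 4 were called higher and 2 lower, beside 11.9% and 11.3% of all genes, including Ulk1 at 1.31 (1.11 to 1.55) and Wipi1 at 1.24 (1.15 to 1.33). The cargo receptor Sqstm1, also a TFEB target in human cells, was not called in any of the 4, at 341 CPM in the TSA + phenamil library, 317 CPM in the TSA library, 349 CPM in the senescent control and 372 CPM in the young control.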

How the data were processed

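RNA of 4 libraries, 1 per condition, was sequenced with a 3' tag kit as single reads of 100 bases. With 1 library per condition, a difference in handling between libraries cannot be told apart from condition. Raw whole-number counts per gene were deposited by the authors, per the file headers. STAR 2.7.10b, HTSeq 2.0.2 and mRatBN7.2 are named, per the submitters' processing notes, without roles. For annotation, strand use and duplicates, the settings are not given in the sources used. The deposited log2 values are normalized, per the file headers. Each was found to lie within 0.000545 of log2(scaled count + 1), with library sizes that were fitted to these same values. The fitted sizes were 0.9987 to 1.001 times the TMM sizes.

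Counts were scaled with TMM in edgeR 4.0.16 (R 4.3.3), over genes reaching 40 counts summed across libraries (35.9% of those listed). With 1 library per group edgeR's quasi-likelihood test has no residual degrees of freedom and was not run, so no p-value is given. Ratios have exact conditional binomial (Clopper-Pearson) intervals at 95%, computed in Python 3.11.15 (pandas 2.3.3, numpy 2.4.6, scipy 1.17.1). Log2 ratios used a prior count of 0.5. The labels name no molecular identifiers, so reads need not be separate molecules, and intervals and floors (3 counts for a count of 0) cover counting error only. The ratio rule was checked on simulated counts with counting error only. That is the error the intervals assume, so the check does not cover variation between cultures. Figures were drawn with matplotlib 3.10.9.

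All 34 members were eligible for naming. Of each further list, up to 3 called genes per direction and comparison, ranked by the interval bound nearest to 1, could be named; of marker lists, the number detected and the genes with at least 40 counts. Genes at 0, genes with no call and the levels shown for single genes of these lists were chosen after their values were seen. The members and all lists were chosen with earlier results of these data known. Overlapping neighbours were read from a RefSeq table of the build GRCr8. Alternatives tried were other scalings (size factors of DESeq2 1.42.0, TMM leaving out ribosomal protein and mitochondrial genes, total counts), other count filters and call sizes, intervals widened for a coefficient of variation of 0.1 assumed among cultures, and the deposited log2 values.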

Additional observations from a re-analysis of the deposited data

How the results depend on the processing

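The calls depended mainly on the size asked of a ratio and on the error assumed, and no called ratio changed direction. The median log2 ratio of the members for TSA + phenamil over TSA, 0.02 with TMM, was -0.02 with total counts, and the other 3 medians kept their sign under every alternative. Uncalled ratios close to 1 could cross it, such as Npc2 in the senescent over the young control, at 1.01 with TMM and 0.995 with total counts. In the senescent over the young control, members called higher numbered 9 at 1.1-fold, 0 at 1.5-fold and 1 (Asah1) when a coefficient of variation of 0.1 was assumed among cultures, and members called lower 0 at 1.5-fold and 1 (Scarb2) with that variation. With TSA over the senescent control, 4 were called higher and 5 lower at 1.1-fold, and 2 lower (Npc1 and Mcoln1) by fold alone in the deposited log2 values. With TSA + phenamil over the senescent control, 1 was called higher (Neu1) and 1 lower (Tfeb) at 1.5-fold, and 1 higher (Neu1) and 2 lower (Gaa and Tfeb) with the assumed variation. With TSA + phenamil over TSA, 10 were called higher at 1.1-fold, 1 higher (Mcoln1) and 1 lower (Tfeb) at 1.5-fold, and 1 higher (Neu1) and 1 lower (Tfeb) with the assumed variation. The share of all genes called per direction was 13.6% to 16.3% at 1.1-fold, 3.56% to 4.94% at 1.5-fold and 3.91% to 5.47% with the assumed variation. All 136 member ratios of the 4 main comparisons kept their call under DESeq2 size factors, under TMM without mitochondrial and ribosomal protein genes and without a count filter. Scaling by total counts lost 2 calls (Atp6v0c in the senescent over the young control, Tpp1 in TSA + phenamil over TSA) and gained 1 (Atp6v0c in TSA + phenamil over TSA). It moved 3 uncalled ratios past their counting intervals: Cd63 to 0.988 in TSA + phenamil over the senescent control, and Cd63 to 0.842 and Psap to 1.098 in TSA + phenamil over TSA. A filter of 200 counts left 32 members, without Tfeb and Mcoln1, whose low counts give wide intervals. No paired analysis was possible because each group had 1 library, and for the same reason no library could be left out.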

Other observations

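Lysosomal proteases are held in check by cystatins, and their delivery depends on mannose 6-phosphate receptors and sorting adaptors. Cst3, the secreted cystatin C, had 569 CPM in the TSA + phenamil library, 493 CPM in the TSA library, 542 CPM in the senescent control and 654 CPM in the young control, with a ratio of 0.829 (0.801 to 0.858) for the senescent over the young control. Cstb, a cytosolic cystatin, had 219.9 CPM in the TSA + phenamil library, 278 CPM in the TSA library, 278 CPM in the senescent control and 231 CPM in the young control. Its ratio was 1.201 (1.14 to 1.27) for the senescent over the young control and 0.792 (0.749 to 0.837) for TSA + phenamil over TSA. Of 11 sorting genes with enough counts, 2 were called higher and none lower with TSA against the senescent control, beside 9.78% and 9.79% of all genes, the adaptor genes Gga2 at 1.398 (1.203 to 1.62) and Gga3 at 1.27 (1.03 to 1.58). With TSA + phenamil over TSA, the sorting receptor gene Sort1 was at 1.33 (1.202 to 1.47) and Gga2 at 0.765 (0.658 to 0.888). The mannose 6-phosphate receptor genes M6pr and Igf2r, named after their values were seen, were not called in the 4 main comparisons.

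Acp5, a tartrate-resistant acid phosphatase best known from osteoclasts, had 5.43 CPM in the TSA + phenamil library, 8.97 CPM in the TSA library, 6.17 CPM in the senescent control and 3.61 CPM in the young control. The TSA library was highest and the young control lowest. The ratio was 1.71 (1.14 to 2.60) for the senescent over the young control and 0.605 (0.426 to 0.853) for TSA + phenamil over TSA. Mmp9, the other osteoclast marker with enough counts, went the other way between the controls. It was called lower in the senescent over the young control at 0.659 (0.499 to 0.867). For TSA + phenamil over TSA it was not called, at 0.936 (0.708 to 1.24).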
